A study of Mus musculus with 6 samples.

Results

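The genes described here encode the cytokines interleukin-7 (IL-7) and interleukin-15 (IL-15), the chains of their receptors, and further receptor chains that work with the common gamma chain. They were chosen by gene symbol and were *Il7*, *Il7r*, *Il15*, *Il15ra*, *Il2rg*, *Il2rb*, *Il4ra*, and *Il21r*. All 8 were present among the 26264 genes of the expression table. A mean normalized count of at least 10 over the 6 libraries, the filter for testing, was reached by 7 of the 8, and *Il2rb* was the exception.

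HSCs of untreated 8-week-old female mice were profiled by bulk RNA-seq, and each of the 3 WT and 3 *Irf1-/-* mice gave 1 library. *Irf1-/-* mice carried the targeted allele of the B6.129S2-Irf1 tm1Mak/J strain in all of their cells, and WT mice were C57Bl/6. The study defines HSCs as bone marrow cells that are negative for lineage markers, positive for Sca-1, Kit, and CD150, and negative for CD48. The comparison asked which transcripts differ in HSCs that lack IRF1, a transcription factor of the interferon response. Because the deletion was present throughout the body and throughout life, an effect within HSCs and an effect of their surroundings cannot be told apart, nor can the lost gene and chromosome 11 segments from the 129 strain that may flank it. Reads on genes numbered 59658080, 45332573, and 43267486 in WT replicates 2, 3, and 4, and 43138521, 57281017, and 45129929 in *Irf1-/-* replicates 2, 3, and 4. Values below are normalized counts, that is, reads divided by 1 size factor per library, and are always given in the order of replicates 2, 3, and 4.

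The targeted gene itself still had reads in every library. *Irf1* was at 10122, 11119.6, and 12057 normalized counts in WT HSCs and at 9267, 9524, and 9287 in *Irf1-/-* HSCs. All 3 *Irf1-/-* values lay below all 3 WT values, but their mean amounted to 84.3% of that in WT HSCs. Gene-level counts do not show which exons the reads cover, so they are a weak check of the genotype labels, and the position of the deletion was not analysed here.

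Transcripts that mark HSCs were abundant. The stem cell factor receptor gene *Kit* was between 77902 and 88715 normalized counts, and the endothelial protein C receptor gene *Procr*, also a marker of HSCs, between 3754 and 6456. All 11 genes of the HSC list were tested, and their summed level was 225214, 229481, and 210039.7 in WT HSCs and 226522, 252719, and 233078 in *Irf1-/-* HSCs. By the limma test described next, 1 of them was called, *Fgd5*, which rose by 0.83 on the log2 scale (adjusted *P* = 9.13e-05). *Procr* (log2 fold change 0.52, limma adjusted *P* = 0.0112) and *Ly6a*, which encodes the sort marker Sca-1 (log2 fold change −0.43, limma adjusted *P* = 0.0245), passed the adjusted *P* but not the fold change for a call. *Ly6a* was at 6908, 7439, and 7692 in WT HSCs and 4974, 6047, and 5376 in *Irf1-/-* HSCs, and the genotypes did not overlap for either gene. At an unadjusted *P* under 0.05 in limma, 8 of the 11 were higher and 1 was lower, beside 8.38% and 8.07% of all tested genes. The genotypes did not overlap for 7 that were higher and 1 that was lower, beside 10.6% and 9.27% of all tested genes. Among the 7 of the HSC list, *Slamf1*, which encodes the sort marker CD150, was higher in all 3 *Irf1-/-* libraries (log2 fold change 0.24, limma adjusted *P* = 0.217). *Cd48*, which the sort gates against, was between 257 and 431.

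Markers of other blood cells ranged from absent to abundant, and some stood apart in single libraries. *Cd3e*, which defines T cells, was at most 7.89 normalized counts, *Cd8a* at most 2.59, and the NK cell gene *Gzma* was at 0 in all 6 libraries. Of the granulocyte list, 7 of 8 genes were tested, and its summed level was 6627, 5178, and 11785 in WT HSCs and 8074, 8249.9, and 10682 in *Irf1-/-* HSCs, with *Prtn3* as its most abundant gene. *Prtn3* was higher in all 3 *Irf1-/-* libraries and passed the adjusted *P* (log2 fold change 0.53, limma adjusted *P* = 0.0334) but not the fold change for a call. The neutrophil granule gene *Ltf* was at 2032 in WT replicate 4 and between 28.2 and 64 in the other 5 libraries. Values without WT replicate 4 are therefore given below for *Il7*, *Il15*, *Il7r*, *Il4ra*, and some of the other genes. The megakaryocyte list was lower in *Irf1-/-* HSCs, with 3 of 7 tested genes called lower, beside 0.954% of all tested genes. Its summed levels were 60369, 73757, and 58411 in WT HSCs and 52625, 34806, and 47425 in *Irf1-/-* HSCs, and its most abundant gene was *Itga2b*. The erythroid list, with 4 of 8 genes tested and the other 4, all globin genes, at 0 in all 6 libraries, was also lower, with summed levels of 3755, 4315, and 3064 in WT HSCs and 2959, 2438, and 2786 in *Irf1-/-* HSCs. In WT replicate 3, *Alas2* of this list was at 487, against at most 221 in the other 5 libraries. Its 1 called gene, *Klf1*, fell by 0.72 on the log2 scale (limma adjusted *P* = 0.0361), a call lost in 4 of 6 fits with 1 library left out. The part of these lists in the results below was not tested. In such bulk samples, fewer cells of a type and less RNA per cell cannot be told apart.

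As background, the common gamma chain is a signaling subunit shared by the receptors for several lymphoid cytokines, among them IL-2, IL-4, IL-7, IL-15, and IL-21, and it signals through the kinases JAK1 and JAK3 to STAT factors. IL-7, made mainly by stromal cells, supports early lymphocytes, whereas IL-15 supports NK cells and memory CD8+ T cells and is usually shown to them by a neighboring cell on IL-15 receptor alpha. IRF1 is a known inducer of *Il15* in myeloid and stromal cells.

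Of the 7 tested members, 1 was called lower and 0 were called higher in *Irf1-/-* HSCs. A call required a Benjamini-Hochberg adjusted *P* under 0.05 over all 17404 tested genes, from limma on log2(normalized count + 1), and an absolute log2 fold change above 0.58. Over all tested genes, 0.954% were called lower and 0.96% higher. At an unadjusted *P* under 0.05, limma, edgeR, and DESeq2 each gave 1 member lower and 3 higher, beside 8.07% lower and 8.38% higher of all tested genes with limma. By the call rule, edgeR gave 0 members lower and 0 higher, and DESeq2, which gave an adjusted *P* to 6 of the 7, gave 1 lower and 0 higher. With the adjusted *P* alone, 1 member lower and 1 higher passed, beside 1.49% and 1.73% of all genes. The genotypes did not overlap for 3 members higher in *Irf1-/-* HSCs and for 1 lower, beside 10.6% and 9.27% of all tested genes. The median log2 fold change of the 7 was 0.23, and that of all tested genes was −0.0028. These background calls depended on single libraries. Against 167 genes called higher with all 6, there were 304 when WT replicate 4 was left out, 102 for WT replicate 3, 104 for *Irf1-/-* replicate 2, and 83 for *Irf1-/-* replicate 4. Against 166 called lower, there were 265 when WT replicate 4 was left out and 105 for WT replicate 3.

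Among the ligands, *Il7* was the member called lower. Its normalized counts were 312, 355, and 238 in WT HSCs and 154, 179.7, and 87.2 in *Irf1-/-* HSCs. Every *Irf1-/-* library lay below every WT library, and in both genotypes replicate 4 was the lowest and replicate 3 the highest. *Il7* fell by 1.14 on the log2 scale (SE 0.29, 95% interval from −1.77 to −0.52, limma adjusted *P* = 0.0473). These values came from 379, 315, and 221 reads in WT HSCs and 144, 208, and 84 reads in *Irf1-/-* HSCs. The call was close to its threshold. The adjusted *P* was 0.00266 with DESeq2, and the call was lost with edgeR (adjusted *P* = 0.0579), without a filter on low values (limma adjusted *P* = 0.0631), and without a trend in limma's prior variance (adjusted *P* = 0.289). It was also lost without WT replicate 2 (log2 fold change −1.11), without WT replicate 3 (−1.02), without *Irf1-/-* replicate 2 (−1.24), and without *Irf1-/-* replicate 4 (−0.84). Without WT replicate 4, the library in which *Ltf* stood apart, the log2 fold change was −1.31 (limma adjusted *P* = 0.0299).

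*Il15*, the other ligand, lay in the opposite direction and was not called. It was at 1540.5, 1633, and 1240.4 normalized counts in WT HSCs and 1657, 2372, and 1782 in *Irf1-/-* HSCs. The genotypes did not overlap, although the lowest *Irf1-/-* value was close to the highest WT value, and *Irf1-/-* replicate 3 was well above the rest. The log2 fold change was 0.39 (SE 0.15, 95% interval from 0.08 to 0.70, limma adjusted *P* = 0.186). Leaving out *Irf1-/-* replicate 3 brought it to 0.23, and leaving out WT replicate 4 to 0.27.

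Read against each other within a library, where no size factor enters, the ligands stood in different proportions in the 2 genotypes. There were 4.94, 4.6, and 5.22 *Il15* reads per *Il7* read in WT HSCs and 10.8, 13.2, and 20.4 in *Irf1-/-* HSCs. Every *Irf1-/-* ratio exceeded every WT ratio. That separation follows from *Il7* being lower and *Il15* higher without overlap, as given above, and is no further result. This pair was chosen after its values were seen and was given no test.

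Stromal cells, which make IL-7 and IL-15 in bone marrow, were represented by 8 marker genes, all tested. Their summed level was 2161, 2789, and 2655 in WT HSCs and 3762, 2999, and 3823 in *Irf1-/-* HSCs, so it was higher in all 3 *Irf1-/-* libraries. The most abundant gene of the list was *Pdgfrb*, and no gene was called by limma. At an unadjusted *P* under 0.05 in limma, 3 were higher, beside 8.38% of all tested genes. Log2 fold changes were positive for 6 of the 8 genes. They were negative for 2, *Lepr* (−0.62, limma adjusted *P* = 0.753) and *Dcn* (−0.52, limma adjusted *P* = 0.809). The marrow stroma marker *Lepr* was between 6.05 and 62 normalized counts. The endothelial list, of which all 6 genes were tested and none was called by limma (2 were higher at an unadjusted *P* under 0.05), summed to 2348, 2512, and 2700.2 in WT HSCs and 3364, 3584, and 3630.2 in *Irf1-/-* HSCs, with the defining marker *Cdh5* at no more than 29. *Emcn*, its most abundant gene, was higher in all 3 *Irf1-/-* libraries and passed the adjusted *P* (log2 fold change 0.576, limma adjusted *P* = 0.0101) just under the fold change for a call, which it passed in 4 of 6 fits with 1 library left out. The part of such cells in the levels of *Il7* and *Il15* was not tested.

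The specific receptor chain for IL-7 was barely transcribed. *Il7r*, which encodes IL-7 receptor alpha, was at 5.76, 4.51, and 32.3 normalized counts in WT HSCs and 22.4, 6.91, and 40.5 in *Irf1-/-* HSCs, from 7, 4, and 30 and 21, 8, and 39 reads. WT replicate 4 and *Irf1-/-* replicates 2 and 4 were higher than the remaining 3 libraries, and the genotypes overlapped. The log2 fold change was 0.88 with an SE of 0.86 (95% interval from −0.97 to 2.73, limma adjusted *P* = 0.7), so a change of either sign was not detectable at this depth and spread. Leaving out WT replicate 4 brought it to 1.69, and leaving out *Irf1-/-* replicate 4 to 0.34.

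Lymphoid progenitors, which carry IL-7 receptor, were followed with a list of 7 genes, 6 of them tested. Its summed level was 2825, 1871, and 3351 in WT HSCs and 3720.5, 4667, and 3712 in *Irf1-/-* HSCs. Its most abundant gene, the cytokine receptor gene *Flt3*, was the 1 gene called, beside 0.96% of all tested genes called higher. *Flt3* rose by 0.67 on the log2 scale (limma adjusted *P* = 0.0407). This call was lost without WT replicate 3 and without each of the 3 *Irf1-/-* libraries in turn, with log2 fold changes from 0.45 to 0.81 over all 6 left out. *Rag1*, *Dntt*, and *Ly6d*, which mark lymphoid commitment, were highest in WT replicate 4, whereas *Blnk*, which encodes a B cell adaptor, was higher in all 3 *Irf1-/-* libraries. *Rag1* was at 148 and *Dntt* at 136 in WT replicate 4, against at most 97 and 48.8 in the other libraries. Their log2 fold changes of −0.31 and −0.27 turned to 0.15 and 0.56 without that library. *Ly6d* was at 0, 5.63, and 59.2 in WT HSCs and at 0 in all 3 *Irf1-/-* libraries. *Blnk* was at 56.8, 32.7, and 73.2 in WT HSCs and 126, 85.5, and 95.5 in *Irf1-/-* HSCs, with a log2 fold change of 0.96 (limma adjusted *P* = 0.226) that was not called. The part of such cells in the *Il7r* reads was not tested.

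*Il15ra*, which encodes the alpha chain that binds and presents IL-15, was transcribed at a level that did not separate the genotypes. It was at 1949, 2118, and 1821 normalized counts in WT HSCs and 1699, 1800.0, and 1936 in *Irf1-/-* HSCs. The genotypes overlapped, and the log2 fold change was −0.11 (SE 0.11, limma adjusted *P* = 0.677). The 95% interval ran from −0.34 to 0.11, which bounds a change in either direction to less than the threshold of 0.58. Within libraries, there were 0.79, 0.771, and 0.681 *Il15* reads per *Il15ra* read in WT HSCs and 0.975, 1.32, and 0.921 in *Irf1-/-* HSCs, and these ratios did not overlap.

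The beta chain needed to signal from IL-15 was close to absent. *Il2rb*, which encodes the beta chain shared by the IL-2 and IL-15 receptors, was at 4.94, 3.38, and 0 normalized counts in WT HSCs and 6.4, 0, and 9.34 in *Irf1-/-* HSCs. This corresponded to 6, 3, and 0 and 6, 0, and 9 reads, and 1 library of each genotype had 0 reads. A count of 0 allows up to 3 reads, which is 3.23 normalized counts in WT replicate 4 and 2.59 in *Irf1-/-* replicate 3 and covers counting error only. No fold change was computed. Per kilobase of the longest transcript, the lowest library held 650.1 normalized counts for *Il15* and 734 for *Il15ra*, and the highest held 3.47 for *Il2rb*.

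NK and T cells, which carry the beta chain, were followed with 2 lists of genes, and no gene of either was called by limma. Of 8 NK cell genes, 5 were tested, and the list summed to 3742, 3329, and 3615 in WT HSCs and 2858, 2697, and 3504 in *Irf1-/-* HSCs, nearly all of it from *Nkg7* and *Klrb1c*. *Nkg7* was lower in all 3 *Irf1-/-* libraries, at 3209, 2895, and 2992 in WT HSCs and 2389, 2174, and 2622 in *Irf1-/-* HSCs (log2 fold change −0.34, limma adjusted *P* = 0.0894). *Klrb1c*, which encodes NK1.1, was between 394 and 837, and the NK receptor gene *Ncr1* was at most 36.6. Of 8 T lineage genes, 4 were tested, and the list summed to 1089.5, 1269, and 1367 and 1313, 1182, and 1337, most of it from the kinase gene *Lck*, with *Cd4* between 117 and 340.5.

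The common gamma chain gene had the highest level of the 8 per kilobase of transcript. *Il2rg* was at 9048, 8273, and 8641 normalized counts in WT HSCs and 9564, 11428, and 9489 in *Irf1-/-* HSCs. The genotypes did not overlap, with *Irf1-/-* replicate 3 the highest, but the difference was small. The log2 fold change was 0.23 (SE 0.09, 95% interval from 0.03 to 0.43, limma adjusted *P* = 0.236), and it was 0.14 without *Irf1-/-* replicate 3.

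*Il4ra*, which encodes the alpha chain of the IL-4 receptor and is also used by IL-13, had the smallest SE of the 7 tested members. It was at 4868, 5267, and 4970.2 normalized counts in WT HSCs and 6677, 6612, and 6182 in *Irf1-/-* HSCs. The 3 libraries of each genotype lay close together and the genotypes were well apart. The log2 fold change was 0.37 (SE 0.08, 95% interval from 0.18 to 0.55), so the mean in *Irf1-/-* HSCs was at 129% of that in WT HSCs. The adjusted *P* was 0.0318 with limma, 0.0283 with edgeR, and 0.00172 with DESeq2, and over all alternatives it ranged from 0.00172 to 0.238. It therefore passed the adjusted *P* but stayed under the fold change required for a call. With 1 library left out, the log2 fold change stayed between 0.34 and 0.40. The adjusted *P* was 0.0376 without WT replicate 4 and above 0.05 without any 1 of the other 5 libraries.

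B cells and macrophages also carry IL-4 receptor and the common gamma chain, and the summed levels of their markers overlapped between genotypes, with no gene of either list called by limma. The B lineage list, with 7 of 8 genes tested, summed to 2883, 3207, and 2796 in WT HSCs and 3189, 2948, and 3140.3 in *Irf1-/-* HSCs, most of it from *Cd79b*, and the mature B cell marker *Ms4a1* was at most 51.6 normalized counts. The macrophage and monocyte list, with all 8 genes tested, summed to 2275, 3379, and 2425 and 2879, 2379, and 2842, with *Cd68* as its most abundant gene. *Ly6c2* of this list was at 808 in WT replicate 3 and at most 181 in the other 5 libraries. Single genes did separate the genotypes, among them *Cd68*, higher in all 3 *Irf1-/-* libraries (log2 fold change 0.29, limma adjusted *P* = 0.358), and *Vpreb1* of the B lineage list, lower in all 3 (−0.54, limma adjusted *P* = 0.504).

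*Il21r*, which encodes the specific chain of the IL-21 receptor, was at 5345, 6241, and 5777 normalized counts in WT HSCs and 5499, 6559, and 6342 in *Irf1-/-* HSCs. The genotypes overlapped, and in both of them replicate 2 was the lowest and replicate 3 the highest. The log2 fold change was 0.08 (SE 0.10, 95% interval from −0.13 to 0.29, limma adjusted *P* = 0.76), again within the threshold of 0.58 on both sides. *Il21r* and *Il4ra* are next to each other in the mouse genome (assembly GRCm38.p6), with 0 annotated genes between them. There were 0.911, 0.844, and 0.86 *Il4ra* reads per *Il21r* read in WT HSCs and 1.21, 1.01, and 0.975 in *Irf1-/-* HSCs, so the ratio of these neighbors did not overlap between genotypes. A further ratio, *Il2rg* reads per *Il4ra* read, did overlap, at 1.86, 1.57, and 1.74 in WT HSCs and 1.43, 1.73, and 1.54 in *Irf1-/-* HSCs.

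To compare levels between genes, normalized counts were divided by the length of the longest annotated transcript. In WT HSCs the mean level per kilobase was 5182 ± 232 for *Il2rg*, 2220.0 ± 172 for *Il21r*, 989 ± 40.7 for *Il4ra*, 848 ± 64.2 for *Il15ra*, and 771 ± 108 for *Il15* (SD, n = 3). *Il7* followed at 107 ± 21.1 per kilobase, and *Il7r* and *Il2rb* were last, at 4.42 ± 4.89 and 1.03 ± 0.938. Neighbors in this order did not overlap over the WT libraries, except *Il15ra* with *Il15* and *Il7r* with *Il2rb*. In *Irf1-/-* HSCs *Il15* (mean 1015 per kilobase) stood above *Il15ra* (783 per kilobase) and its range overlapped that of *Il4ra* instead (1275 per kilobase). The order depends in part on the transcript chosen, since with median transcript lengths *Il4ra* (2489 per kilobase in WT HSCs) stood above *Il21r* (2436) and *Il15ra* (2398) was close behind, whereas *Il2rg* (8958) stayed first and *Il7* (131), *Il7r*, and *Il2rb* stayed last. In *Irf1-/-* HSCs the order of *Il15* and *Il15ra* turned with these lengths, to 1027 per kilobase for *Il15* and 2214 for *Il15ra*.

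The genes whose pattern over the 6 libraries was most like that of each tested member were found by Pearson's *r* of log2(normalized count + 1) among the other 17403 tested genes, and are given as a description. For *Il7* they were *Dscc1* (*r* = 0.996), *Paics* (0.995), and *Rad17* (0.995). For *Il15* they were *Fam120b* (0.991), *Kctd10* (0.991), and *Selenbp1* (0.991). For *Il4ra* they were *Ssh3* (0.998), *Egr1* (0.995), and *Tsc22d3* (0.993), of which the immediate early gene *Egr1* was called and rose by 1.01 on the log2 scale (limma adjusted *P* = 3.89e-05). Its normalized counts were 2744, 3234, and 2778 in WT HSCs and 6247, 5935, and 5471 in *Irf1-/-* HSCs. The *Irf1-/-* replicates were in the same order as for *Il4ra*, which the choice of *Egr1* by its *r* favors. For *Il2rg* they were *Igfbp7* (0.991), *Tmem185a* (0.987), and *Ppp3ca* (0.984). For *Il15ra* they were *Rae1* (0.989), *Ddx55* (0.987), and *Exosc9* (0.986). *Il21r* was most like *Epha7* (0.993), *Hcar2* (0.983), and *Ndn* (0.982), and *Il7r* was most like *Igf1r* (0.997), *Ankrd55* (0.993), and *Gm14486* (0.99). All of these genes were picked as the most alike of 17403 over only 6 libraries. Every tested member, including *Il7r* with its few reads, had values of 0.982 or more, so an *r* of this size is not particular to any member.

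Of 44 other genes of the pathway, 38 were tested, 2 were called higher and 1 was called lower. Their median log2 fold change was 0.07, and the genotypes did not overlap for 11 that were higher and 3 that were lower. Of all tested genes, 0.96% were called higher and 0.954% lower. The genotypes did not overlap for 10.6% of all tested genes that were higher and 9.27% that were lower. Among the other ligands that share a receptor chain with the members, only *Il4* and *Tslp* reached the filter. *Il9* was at 0 reads in all 6 libraries, and *Il2*, *Il21*, and *Il13* were at most 3.29, 1.13, and 2.08 normalized counts. *Il4*, which lies near *Irf1* in the mouse genome (5 annotated genes apart), was at 319, 142, and 311 in WT HSCs and 369.9, 321, and 437 in *Irf1-/-* HSCs. Its genotypes did not overlap but WT replicate 3 was far below the rest, and the log2 fold change of 0.62 (SE 0.28, limma adjusted *P* = 0.289) was 0.24 without that library. *Tslp*, whose product signals through IL-7 receptor alpha and the chain encoded by *Crlf2*, was between 145 and 219, and its genotypes overlapped.

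Among the other receptor chains, *Crlf2* was well expressed, at between 1982 and 2470.0 normalized counts, and its genotypes overlapped. *Il2ra*, which would complete the high-affinity IL-2 receptor, was at most 14.5. *Il9r* was between 36.6 and 93.3, and *Il13ra1* between 26.7 and 56.1. The decoy receptor gene *Il13ra2* was at 0.823, 7.89, and 4.3 in WT HSCs and at 0 in all 3 *Irf1-/-* libraries, but it was below the filter and was not tested.

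All 9 kinase and STAT genes of the list were tested. *Jak3*, the kinase bound by the common gamma chain, was at 17950.2, 17995, and 16771 and 20121, 22759.5, and 21496. Its genotypes did not overlap, and the log2 fold change was 0.29 (SE 0.09, limma adjusted *P* = 0.0916). *Jak1*, *Stat3*, and *Stat5b* were also higher in all 3 *Irf1-/-* libraries than in any WT library, with log2 fold changes of 0.17, 0.24, and 0.08 that were not called. *Stat5a*, the other STAT5 gene, had a log2 fold change of −0.14, and its genotypes overlapped.

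Of the 10 adaptor and phosphatase genes, all tested, none was called by limma, and 2 were higher and 0 lower at an unadjusted *P* under 0.05. Of all tested genes, limma gave 8.38% higher and 8.07% lower at that *P*. The 2 adaptor genes were *Irs2*, an adaptor of the IL-4 receptor, and *Sh2b3*, which encodes LNK, an inhibitor of JAK2 signaling in HSCs. *Irs2* was at 1694, 1301, and 1514 normalized counts in WT HSCs and 2301, 1757, and 2189 in *Irf1-/-* HSCs (log2 fold change 0.47, limma adjusted *P* = 0.074). *Sh2b3* was at 5416, 4530.3, and 4600.1 and 5609, 6880.2, and 6072 (log2 fold change 0.35, limma adjusted *P* = 0.0872). The genotypes did not overlap for either gene, and *Irs2* passed as a call when *Irf1-/-* replicate 3 was left out (log2 fold change 0.59).

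Of 14 feedback and survival genes that cytokine receptors are known to induce through STAT factors, all tested, 2 were called higher. Of all tested genes, 0.96% were called higher. *Pim2*, which encodes a survival kinase, was at 7413, 4446, and 5907 normalized counts in WT HSCs and 12299, 15254, and 14531 in *Irf1-/-* HSCs. It rose by 1.27 on the log2 scale (SE 0.15, limma adjusted *P* = 0.000264), and every *Irf1-/-* value was far above every WT value. *Socs3*, which encodes a feedback inhibitor of cytokine receptors, was at 694, 568, and 892 and 1562, 1724, and 1541. It rose by 1.19 (SE 0.15, limma adjusted *P* = 0.000737), again without overlap, and both genes kept their calls whichever library was left out. Without a trend in limma's prior variance, neither *Pim2* nor *Socs3* was called. The feedback genes *Cish* and *Socs2* were higher in all 3 *Irf1-/-* libraries, with log2 fold changes of 0.48 (limma adjusted *P* = 0.0622) and 0.50 (limma adjusted *P* = 0.066) that were not called. *Socs2* passed as a call when WT replicate 2 was left out (log2 fold change 0.61). *Socs1* was lower in all 3, with a log2 fold change of −0.17 (limma adjusted *P* = 0.625).

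Survival genes of the BCL-2 family were measured as well, and *Bcl2* lay in the opposite direction to *Pim2*. *Bcl2*, which IL-7 is known to maintain in lymphocytes, was at 6806, 7595, and 6479 normalized counts in WT HSCs and 5546, 5327, and 4784 in *Irf1-/-* HSCs. The genotypes did not overlap, and the log2 fold change of −0.41 (SE 0.09, limma adjusted *P* = 0.0291) passed the adjusted *P* but not the fold change for a call. *Bcl2l1* and *Mcl1* had log2 fold changes of −0.11 (−0.18 without WT replicate 4) and 0.06, and their genotypes overlapped.

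**Figure D1:**
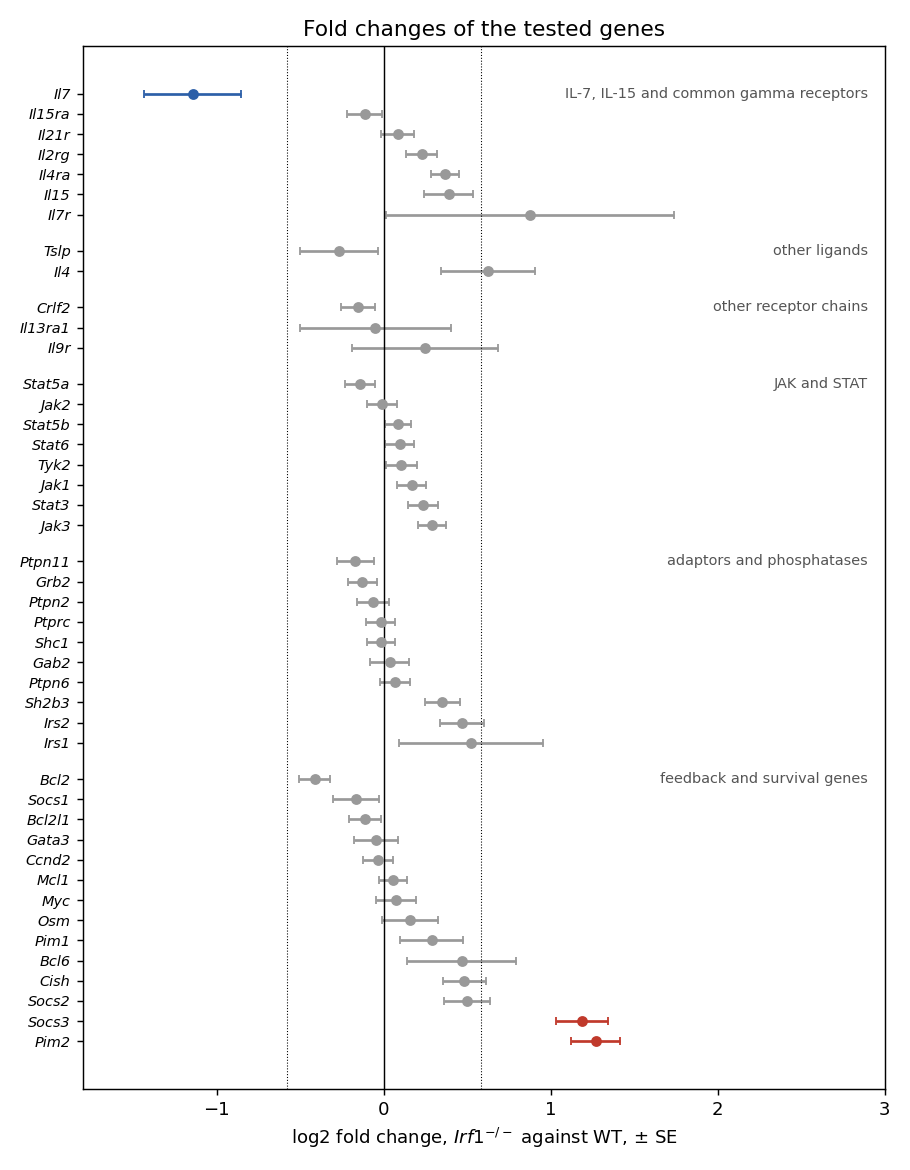
Log2 fold change of *Irf1-/-* against WT HSCs (horizontal axis, points with bars of 1 SE from limma, 3 libraries per genotype) for the 7 tested members and 37 of the 38 tested genes of the pathway, grouped by role. Blue and red mark genes called lower and higher, gray marks genes not called, and dotted lines stand at −0.58 and 0.58. *Il7* lies left of the lines, and *Socs3*, *Pim2*, *Il7r*, and *Il4* lie right of them, of which *Il7r* and *Il4* were not called. *Il7r* has the widest bar.

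Promoter sequences from RefSeq (GRCm38.p6), from 250 bases before to 50 after each start, were given for 5 of the 8 members, *Il7r*, *Il15ra*, *Il2rg*, *Il4ra*, and *Il21r*, and not for *Il7*, *Il15*, and *Il2rb*. They were searched on both strands for GAAANNGAA, the core of IRF response elements, and TTCNNNGAA, the core of the sites that STAT factors bind, which reads the same on both strands. Of 32851 promoters, 8.56% held the first and 8.3% the second. *Il15ra* was the only one of the 5 members with a match to the IRF core, and it had 1 match at each of its 2 listed starts. *Il7r* was the only one of the 5 with a match to the STAT core. *Il2rg*, *Il4ra*, and *Il21r* had neither. Of the pathway genes that passed the adjusted *P* and had a promoter given, *Socs3* held a STAT core and *Pim2* and *Bcl2* held neither core. The 30 bases around each match are shown, because *Il15ra* and *Il7r* did not separate the genotypes while *Socs3* rose. They are written on the strand of the gene, with the match in capitals.
*Il15ra*, upstream start, chr2:11705134-11705163, + strand: tcaccccttcTTCCATTTCaaacacttggc
*Il15ra*, downstream start, chr2:11705732-11705761, + strand: aagcaaaagcGAAAGCGAAtactccttagc
*Il7r*, chr15:9529999-9530028, - strand: gttcaggagcTTCAGGGAAtaccaagatgc
*Socs3*, chr11:117969501-117969530, - strand: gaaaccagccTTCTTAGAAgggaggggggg
The first *Il15ra* match began at position −149 from the start of transcription and lay on the opposite strand to the gene. The second began at position 31, on the strand of the gene. The *Il7r* and *Socs3* matches began at positions −142 and −154. A match is not a bound site, and binding of IRF1 or STAT factors was not analysed here.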

How the data were processed

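Bulk RNA-seq libraries of HSCs from 3 WT and 3 *Irf1-/-* mice were grouped by their genotype labels. The authors made cDNA with a SMART-Seq v4 kit and Nextera XT libraries, and used Trim Galore for trimming, HISAT2 for alignment, and htseq-count for counts per gene symbol. The submitters' processing notes name the build mm39, and program versions, annotation, and strand setting are not given in the sources used here, so overlapping genes on opposite strands may share reads. The deposited signal is the count of each gene over 1 DESeq2 size factor per library.

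All values (100%) were whole multiples, within 0.01, of the smallest value in the same library, which gave back whole reads. Libraries held between 43138521 and 59658080 reads on genes. Libraries of one genotype differed beyond sampling noise, with a chi-square of 15.0 to 27.6 per gene. Reads carry no molecular identifiers, so the floor of 3 reads used for a count of 0 covers counting error only.

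The main test was limma 3.58.1 (R 4.3.3, trend in the prior variance) on log2(normalized count + 1), which understates changes of low genes, over 17404 genes with a mean of at least 10. *P* values were adjusted by the Benjamini-Hochberg method over all of them, and a call needed an adjusted *P* below 0.05 together with an absolute log2 fold change over 0.58. On the recovered reads, edgeR 4.0.16 called 327 genes and DESeq2 1.42.0 called 504. Adjusted *P* values that DESeq2 left empty stayed so. Alternatives covered pseudocounts, filters, trend, scaling, a block for replicate number, leaving out each library, and the call rule.

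Named genes were the 8 members, *Irf1*, called pathway genes and those whose genotypes did not overlap, and the 3 genes most like each member. Other genes named belong to the lists and were picked with their values in view. Some genes that these rules cover are not reported here. Members and lists were chosen with earlier results of these data known. Transcript lengths came from GENCODE vM1, and RefSeq tables of GRCm38.p6 gave promoters and gene neighbors. No coordinates were moved between builds. The tests were checked on simulated data. Figures were drawn with matplotlib 3.10.9.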

Additional observations from a re-analysis of the deposited data

How the results depend on the processing

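Of 111 fold changes of the 7 tested members under the alternatives, 104 kept their direction and side of the call rule, 7 kept their direction but lost the call, and 0 turned, and all 7 were of *Il7*, out of 16 alternatives. The count of members called lower was 1, and it was 0 without a filter on low values, where 24420 genes were tested, 0 without a trend in the prior variance, and 0 with edgeR, and it ranged from 0 to 1 with 1 library left out. The count of members called higher was 0, and it was 1 with the adjusted *P* alone.

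Of all tested genes, 167 were called higher and 166 lower. These counts were 7 and 33 without a trend in the prior variance and 301 and 260 with the adjusted *P* alone, and DESeq2 called 295 higher. With 1 library left out they ranged from 83 to 304 higher and from 105 to 265 lower. Of the pathway genes, 2 were called higher and 1 lower, both counts were 0 without a trend, and 2 were lower with the adjusted *P* alone. The causes of these shifts were not tested.

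Both genotypes carry replicate numbers 2, 3, and 4. Deviations of same-numbered libraries from their genotype means correlated at −0.09, 0.25, and 0.15, and WT replicates 2 and 4 correlated better with another number than with their own, so the numbers were not taken to pair the mice. With the replicate block, 219 genes were called higher and 196 lower, 0 members higher and 1 lower, and 2 pathway genes higher and 1 lower, and the adjusted *P* of *Il7* was 0.018. Depth limits *Il7r* and *Il2rb*, which had at most 39 reads in a library.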
